A study of Mus musculus with 6 samples.

Results

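Epithelial cells hold to each other by adherens junctions, desmosomes and tight junctions, and carry a scaffold of simple keratins. The RNA of 10 genes of this machinery was followed in OPCs, the glial precursors that give rise to myelinating oligodendrocytes, out of 18211 genes in the table. The 10 were the epithelial cadherin Cdh1, the desmosomal cadherins Dsc2, Dsc3 and Dsg2, the desmosomal plaque protein Dsp, the simple keratins Krt8, Krt18 and Krt19, the epithelial adhesion molecule Epcam and the tight junction protein Marveld3. They were chosen by symbol from measured values of these libraries, since several had been seen to differ between the genotypes, so the difference between genotypes is a description of them and carries no test. Of the 10, 7 were higher in all DISC1-Δ3 libraries than in any wildtype library, 0 were lower in that way, and 3 overlapped. Of all 18211 genes, 22.2% were higher in that way, and nothing is read from the count of members. Cdh1, Dsc3 and Marveld3 were near 0 in wildtype libraries and between 2.14 and 3.75 RPKM, on average, in DISC1-Δ3 libraries. RPKM divides a gene's reads by the length of its transcript and by the size of the library.

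The series compared OPCs of 2 genotypes, with 3 libraries each. DISC1-Δ3 mice carried the tamoxifen-inducible NG2-CreERTM transgene with DISC1 exon3 fl/+, that is, 1 allele whose exon 3 can be removed. The labels call the controls wildtype, and the study describes the wildtype mice of its RNA sequencing as free of CreERT. The groups thus differed in the Cre transgene as well as in exon 3, and these cannot be told apart. All mice were C57BL/6, received tamoxifen by gavage on each of 4 days from P4 to P7, and were used at P7, when cells were immunopanned from the cerebral hemispheres with an antibody to Pdgfrα and their RNA taken without culture. Cre was driven by the promoter of NG2 (Cspg4), which pericytes use as well as OPCs, and the labels do not say how many animals made up a library, so p-values measure only the spread between these libraries.

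Libraries held 13716619 to 16417219 reads, and 1 read was worth 0.0596 to 0.0749 CPM (reads scaled to the size of the library). Disc1, the targeted gene, was at 3.51, 3.34 and 3.81 RPKM in wildtype replicates 1 to 3 and at 2.86, 2.44 and 2.85 RPKM in DISC1-Δ3 replicates 1 to 3, and fell by 0.45 ± 0.09 (SE) on the log2 scale (adjusted p = 5.28e-04, edgeR quasi-likelihood test). Whole-gene reads do not tell the allele without exon 3 from the full one. DISC1-Δ3 replicate 3 stood apart from its group: its reads scattered against those of the other DISC1-Δ3 libraries by 5.01 and 5.42 times what sampling alone gives (chi-square over its degrees of freedom), against 2.60 for the other DISC1-Δ3 pair and 1.81 to 2.99 for wildtype pairs. OPC markers were present, with Pdgfra at 17.5 RPKM in wildtype libraries, but markers of microglia stood far higher, with Csf1r at 1865 RPKM. Summed over the marker lists used below, wildtype libraries held 449 to 461 RPKM for OPCs and 5070 to 5128 RPKM for microglia. Markers of mature oligodendrocytes summed to 2515.5 to 2548.2 RPKM and those of astrocytes to 1776 to 1809 RPKM, also over the OPC sum.

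In epithelia, classical cadherins join neighbouring cells and are tied to actin by catenins. Desmosomes are built from desmocollins and desmogleins, which plakoglobin, plakophilins and desmoplakin couple to keratin filaments. Keratins form filaments only as pairs of a type II chain, such as Krt8, with a type I chain, such as Krt18 or Krt19. Neural tissue uses other cadherins and other intermediate filaments, and cells of the oligodendrocyte lineage are not known as keratin-bearing cells.

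The promoters of the keratin pair are shown because Krt8 and Krt18 lie next to each other, are read in opposite directions and were higher together, and that of Epcam because it serves a member at the same level in both genotypes. Each is the stretch of 250 bases before the start of transcription, 5′ to 3′ on the strand of the gene, from RefSeq on GRCm38.p6. Capitals mark the E-box CAGGTG, or CACCTG where it lies on the opposite strand, the sequence bound by the Snai and Zeb repressors of Cdh1.
Krt8, chr15:102004343-102004592, minus strand: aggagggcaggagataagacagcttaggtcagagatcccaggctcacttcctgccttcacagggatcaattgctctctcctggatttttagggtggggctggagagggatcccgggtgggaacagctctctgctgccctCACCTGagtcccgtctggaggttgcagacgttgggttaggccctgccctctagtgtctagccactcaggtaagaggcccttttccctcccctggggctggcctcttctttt
Krt18, chr15:102027966-102028215, plus strand: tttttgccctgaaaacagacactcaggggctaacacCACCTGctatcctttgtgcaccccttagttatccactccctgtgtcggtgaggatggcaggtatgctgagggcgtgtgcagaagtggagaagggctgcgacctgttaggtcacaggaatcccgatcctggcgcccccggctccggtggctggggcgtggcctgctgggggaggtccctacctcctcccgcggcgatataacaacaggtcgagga
Epcam, chr17:87635729-87635978, plus strand: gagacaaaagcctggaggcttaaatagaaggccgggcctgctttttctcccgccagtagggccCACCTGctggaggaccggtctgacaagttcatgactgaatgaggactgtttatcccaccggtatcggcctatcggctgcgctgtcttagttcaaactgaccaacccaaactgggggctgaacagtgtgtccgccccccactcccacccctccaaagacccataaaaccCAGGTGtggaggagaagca
The E-box stood once in the Krt8 stretch, once in the Krt18 stretch and 2 times in that of Epcam. Its part in the level of any of these genes was not tested.

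Windows of 300 bases around the start, 250 before it and 50 after it, were at hand for 4 of the 10 members: Krt8, Krt18, Epcam and Dsp. The E-box was in 4 of the 4, at -111 from the start in Krt8, at -214 in Krt18, at -187 and -19 in Epcam and at 4 bases into the transcript in Dsp. It was in 20.2% of all 32851 windows. The 4 windows held 57% to 73% G and C, against a median of 52.7% over all windows, and were not matched for this. No enrichment is therefore read from the share. Searched on both strands like the E-box, the TCF/LEF core CTTTGNN with A or T at the last 2 places, the AP-1 site TGANTCA and the GRHL core AACNNGTT were in 0 of the 4, against 16.9%, 7.81% and 4.20% of all windows. No E-box overlapped another motif in these windows, and a match is a description of letters, not of binding. Cdh1, Marveld3, Krt19, Dsc2, Dsc3 and Dsg2 had no window shown here.

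Cdh1, which makes E-cadherin, the adherens junction cadherin of epithelia, lies on the plus strand at chr8:106603350-106670247 (GRCm38). It had 7, 6 and 3 reads in wildtype replicates 1 to 3 and 211, 258 and 282 reads in DISC1-Δ3 replicates 1 to 3. In RPKM this was 0.12, 0.09 and 0.04 against 3.45, 3.73 and 4.08. The groups lay far apart, with the lowest DISC1-Δ3 library well over the highest wildtype library. The ratio of pooled CPM was 44.3 (exact 95% interval 27.1 to 78.0), and the fitted log2 fold change was 5.43 ± 0.22 (SE). Intervals here and below cover counting error only.

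Marveld3, a tight junction protein that spans the membrane, lies on the same chromosome at chr8:109947909-109962205 on the minus strand. It had 1, 1 and 2 reads in wildtype libraries and 43, 62 and 70 in DISC1-Δ3 libraries, or 0.06, 0.05 and 0.08 RPKM against 1.74, 2.17 and 2.50 RPKM. Each wildtype library was at or under 3 reads, the level taken as the floor, while each DISC1-Δ3 library was well over it. The ratio was 41.3 (15.9 to 153), wide because it rests on 4 wildtype reads.

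Epcam, the adhesion molecule by which epithelial cells are commonly sorted, at chr17:87635979-87651127 on the plus strand, gave the opposite picture. It had 41, 64 and 75 reads in wildtype libraries and 67, 74 and 60 in DISC1-Δ3 libraries, which is 1.57, 2.03 and 2.39 RPKM against 2.45, 2.39 and 1.95 RPKM. The groups overlapped, and the fitted log2 fold change was 0.09 ± 0.19 (SE). The exact interval of the ratio was 0.858 to 1.30, so a difference as large as that of Cdh1 lay outside it.

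Dsc3, a desmocollin found mainly in stratified epithelia, showed the widest gap of the 10. It had 1, 0 and 0 reads in wildtype libraries and 147, 162 and 241 in DISC1-Δ3 libraries, or 0.01, 0 and 0 RPKM against 2.02, 1.96 and 2.92 RPKM. Wildtype libraries were thus at the floor, and all DISC1-Δ3 libraries were well over it, with replicate 3 the highest. The ratio of pooled CPM was 520 with an exact 95% interval of 92.9 to 20557. The fitted value of 8.57 ± 0.44 (SE) depends on the small count added for 0 reads and is no bound.

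The other desmosomal cadherins among the members, in the same cluster on chromosome 18, had more reads than Dsc3 in wildtype libraries and far fewer in DISC1-Δ3 libraries. Dsc2, the desmocollin of simple epithelia, had 8, 1 and 7 reads in wildtype libraries against 18, 20 and 12, and Dsg2, the desmoglein of simple epithelia, had 3, 10 and 5 reads against 20, 20 and 21. For both genes every DISC1-Δ3 library was over every wildtype library, but no library passed 0.28 RPKM. The ratios were 2.95 (1.65 to 5.55) for Dsc2 and 3.20 (1.87 to 5.76) for Dsg2. An antisense gene, Gm16090, overlaps Dsg2, and reads of the 2 strands cannot be told apart.

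Dsp encodes desmoplakin, the plaque protein that ties desmosomes to keratin, at chr13:38151294-38198577 on the plus strand. It had 8, 19 and 6 reads in wildtype libraries and 9, 4 and 2 in DISC1-Δ3 libraries, at most 0.12 RPKM. The groups overlapped, and the ratio of 0.429 (0.217 to 0.813) was below 1. It rests on single libraries: on the log2 scale it was -1.22, but -0.61 when wildtype replicate 2 was left out and -2.03 when DISC1-Δ3 replicate 1 was. Gm10129 overlaps Dsp on the opposite strand, with the same limit as for Dsg2.

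Krt8, the type II simple keratin, lies at chr15:101996711-102004342 on the minus strand. It had 20, 25 and 29 reads in wildtype libraries and 273, 261 and 293 in DISC1-Δ3 libraries, or 0.88, 0.91 and 1.07 RPKM against 11.52, 9.73 and 10.97 RPKM. The wildtype libraries already held the gene at a low level, and the DISC1-Δ3 libraries lay far over them with little spread. The ratio was 10.6 (8.31 to 13.6) and the fitted log2 fold change 3.40 ± 0.15 (SE). The long noncoding gene Gm36026 overlaps Krt8 on the opposite strand, and its reads could not be separated from those of Krt8.

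Krt18, its type I partner, starts 23874 bases beyond the start of Krt8, at chr15:102028216-102032026 on the plus strand. It had 46, 57 and 47 reads in wildtype libraries and 339, 405 and 352 in DISC1-Δ3 libraries, or 2.69, 2.75 and 2.29 RPKM against 18.91, 19.95 and 17.44 RPKM. It had the highest mean RPKM of the 10 genes in both genotypes, and the groups lay far apart. The ratio was 6.90 (5.81 to 8.24) and the fitted log2 fold change 2.78 ± 0.12 (SE). Both keratins have near-identical processed copies elsewhere in the genome, and reads from such copies could be split or misplaced by the authors' counting; the deposited counts of all 10 members were whole numbers in every library.

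The levels of the pair, per length, were not equal. The RPKM of Krt8 divided by that of Krt18 was 0.327, 0.331 and 0.467 in wildtype libraries and 0.609, 0.488 and 0.629 in DISC1-Δ3 libraries. Krt18 was therefore the higher of the pair in all 6 libraries, and the ratio was higher in every DISC1-Δ3 library. Krt19, the other type I partner of Krt8, at chr11:100140810-100145926 on the minus strand, did not follow. It had 6, 2 and 7 reads in wildtype libraries and 4, 7 and 4 in DISC1-Δ3 libraries, a ratio of 0.945 (0.430 to 2.07), and the groups overlapped at 0.16 to 0.36 RPKM.

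**Figure D1:**
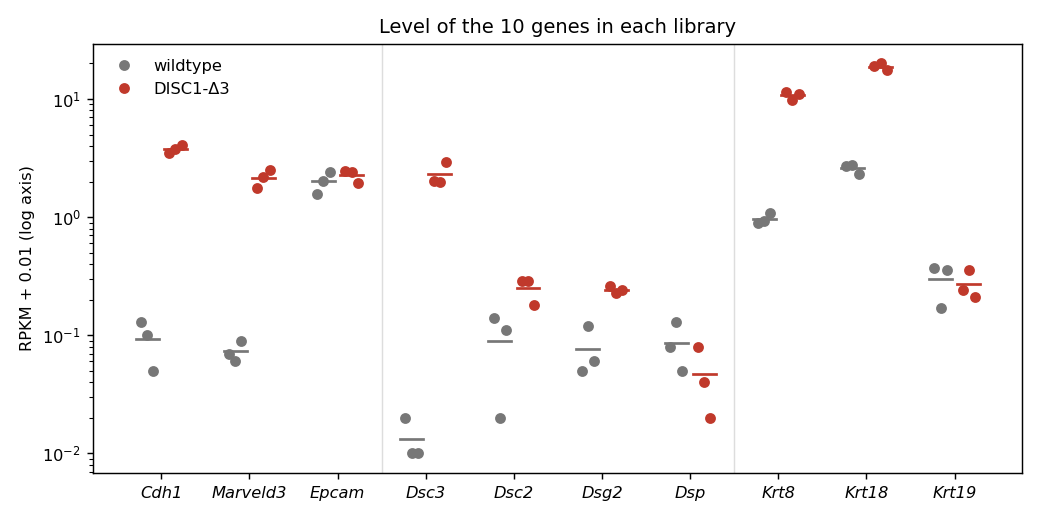
The RPKM of each of the 10 genes, plus 0.01, on a log axis, with 1 point per library (3 wildtype in grey, 3 DISC1-Δ3 in red) and a bar at the mean of each group. Cdh1, Marveld3, Dsc3, Krt8 and Krt18 lie far apart between genotypes, Dsc2 and Dsg2 lie apart at low levels, and Epcam, Dsp and Krt19 overlap.

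By level per length, Krt18 led in wildtype libraries at 2.58 ± 0.25 RPKM (SD, n = 3) but overlapped Epcam at 2.00 ± 0.41, and both were over Krt8 at 0.953 ± 0.102 and Krt19 at 0.290 ± 0.113. Below these, Cdh1, Dsc2, Dsp, Dsg2 and Marveld3 lay between 0.0633 and 0.0833 RPKM on average and each overlapped the next. In DISC1-Δ3 libraries the order was Krt18 at 18.8 ± 1.26 RPKM, Krt8 at 10.7 ± 0.917 and Cdh1 at 3.75 ± 0.316, each separate from the next. Dsc3 at 2.30 ± 0.54, Epcam at 2.26 ± 0.27 and Marveld3 at 2.14 ± 0.38 overlapped one another, and the other members were at or under 0.26 RPKM on average. Cdh1 and Dsc3 thus passed Epcam or came level with it only in the DISC1-Δ3 libraries.

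The test across genes took those with an RPKM of at least 0.5 in 3 or more of the 6 libraries, 13792 in all. Of the members 6 passed this filter, of which Cdh1, Dsc3 and Marveld3 passed only through the DISC1-Δ3 libraries, and Dsc2, Dsg2, Dsp and Krt19 did not pass. A log2 fold change of at least 2 was found for 5 of the 6, against 1.01% of all tested genes. The 7 members higher without overlap stand beside 22.2% of the genes of the table. Of genes at the floor of 3 reads throughout the wildtype group, 1.48% reached 10 reads or more throughout the DISC1-Δ3 group, as Dsc3 and Marveld3 did. The members were chosen from this contrast, so nothing is read from these shares. In bulk RNA, more cells that hold a transcript and more transcript per cell cannot be told apart.

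Related genes, none of them a member, were taken from lists of junction, keratin and epithelial genes. The lists were drawn up with earlier results of these data known, so calls within them describe these libraries and are no independent test. Over all 13792 tested genes, 20.4% were higher and 19.5% lower in DISC1-Δ3 libraries (adjusted p under 0.05, edgeR quasi-likelihood test, two-sided, Benjamini-Hochberg), with a median log2 fold change of 0.01. The table held 172 related genes, and 93 of these were tested, of which 40 rose and 15 fell, with a median of 0.20. The other 79 were scarce, and 33 of them had at most 3 reads in every library.

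Of the other cadherins 11 of 21 were tested, 8 rose and 1 fell, with a median log2 fold change of 0.39. The largest rise was that of Cdh3, which makes P-cadherin of basal epithelia. It had 23, 18 and 19 reads in wildtype libraries and 208, 226 and 215 in DISC1-Δ3 libraries, and rose by 3.34 ± 0.17 (SE) on the log2 scale (adjusted p = 5.49e-11, edgeR). Cdh22, Cdh4 and Cdh13, cadherins of neural tissue, rose by 1.31, 1.04 and 1.03 from higher levels, 4.27, 6.47 and 13.96 RPKM in wildtype libraries. N-cadherin, Cdh2, the most abundant cadherin of the list, rose by 0.32 from 36.5 to 48.1 RPKM. Cdh10 fell by 0.29, a call that was lost under 8 of the alternatives, among them DESeq2.

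Among catenins, nectins and adaptors 15 of 16 genes were tested, 6 rose and 3 fell, with a median log2 fold change of 0.08. Ctnnb1, which makes β-catenin, rose from 146 ± 1.72 to 191 ± 5.76 RPKM (SD, n = 3; log2 fold change 0.30 ± 0.04, adjusted p = 8.77e-06, edgeR). Jup, which makes plakoglobin, shared by adherens junctions and desmosomes, was at 30.9 ± 3.29 and 33.6 ± 1.30 RPKM and was not past the threshold (adjusted p = 0.604, edgeR). Ctnna1, which makes α-catenin, rose by 0.27, and Ctnnd1, the p120 catenin, was at 36.4 and 38.2 RPKM with no call (adjusted p = 0.883, edgeR). Nectin1, Afdn, which ties nectins to actin, and the polarity gene Pard3 rose by 0.85, 0.57 and 0.49. Nectin2 fell by 0.28 and Vcl, which makes vinculin, by 0.22, calls that were lost with limma, and that of Vcl also with scaling by library totals. Nectin4, the nectin best known from epithelia and placenta, fell by 0.74.

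The other desmosome genes were mostly scarce. The table held 13, and 4 of them were tested: 1 rose, 1 fell and 2 did not pass the test. Pkp2, a plakophilin of simple epithelia and heart, had 10, 8 and 9 reads in wildtype libraries and 41, 43 and 31 in DISC1-Δ3 libraries (log2 fold change 2.00 ± 0.31 SE, adjusted p = 5.45e-05, edgeR). Perp, a membrane protein of desmosomes in stratified epithelia, fell by 0.50 from 4.63 ± 0.30 to 3.47 ± 0.12 RPKM. Pkp4, a plakophilin of many tissues, was at 16.01 and 17.97 RPKM with no call (adjusted p = 0.206, edgeR). Dsc1, Dsg1a, Dsg1b, Dsg1c and Dsg3 had at most 4 reads in any library, so Dsc3 was the only desmosomal cadherin over 0.5 RPKM in the DISC1-Δ3 libraries among those in the table.

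Tight junction genes showed no common direction. The table held 34, of which 21 were tested, 4 rose and 5 fell, with a median log2 fold change of -0.09. Tjp3, a scaffold of epithelial tight junctions, had 24, 27 and 32 reads in wildtype libraries and 96, 93 and 98 in DISC1-Δ3 libraries (log2 fold change 1.71 ± 0.19 SE, adjusted p = 9.09e-07, edgeR). Cgnl1, a cingulin relative, and the polarity gene Patj rose by 0.54 and 0.42, and the call for Patj was lost under DESeq2. Cldn5, the claudin of brain endothelium, rose by 0.39, and Cldn11, the claudin of myelin, fell by 0.47. F11r, a junctional adhesion molecule, fell by 0.35 and the scaffold Tjp1 by 0.29. Cldn10, the most abundant gene of the list, fell by 0.21 from 120 to 110 RPKM, a call lost with scaling by library totals. Ocln and Marveld2, the other proteins of the family of Marveld3, were at 1.52 and 0.807 RPKM in wildtype libraries and at 1.41 and 0.733 RPKM in DISC1-Δ3 libraries, and were not past the threshold (adjusted p = 0.326 and 0.639, edgeR). They were named after their values were seen.

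The table held 35 other keratins, of which 7 were tested, 2 rose and 1 fell. Krt79, a type II keratin of skin glands whose gene lies close to Krt8, had 4, 2 and 0 reads in wildtype libraries and 49, 55 and 59 in DISC1-Δ3 libraries (fitted log2 fold change 4.60 ± 0.43 SE, adjusted p = 1.25e-07, edgeR). Krt23, a type I keratin, had 0, 4 and 2 reads against 41, 21 and 27 (3.74 ± 0.56, adjusted p = 3.33e-05, edgeR). Krt80 fell by 0.82 from 0.650 to 0.393 RPKM, a call lost under DESeq2. Krt1 and Krt222, 2 of the 3 most abundant of the list with Krt79, were at 1.22 and 0.603 RPKM in wildtype libraries and at 1.56 and 0.960 RPKM in DISC1-Δ3 libraries, with no call (adjusted p = 0.294 and 0.0527, edgeR). Krt5 and Krt14, the pair of basal keratinocytes, had at most 1 read in any library, and Krt7, a simple type II keratin, at most 3.

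The other intermediate filaments, those of glia, neurons and the nucleus, were the list with the most even direction: 13 of 13 were tested, 11 rose and 0 fell, with a median log2 fold change of 0.49. Vim rose by 0.75 from 126 to 223 RPKM and Gfap, the filament of astrocytes, by 0.34 from 142 to 189 RPKM. Lmnb1, a lamin of the nuclear envelope, rose by 0.20. Prph, a filament of peripheral neurons, rose by 1.57 and the neurofilament gene Nefh by 0.79. Of the hemidesmosome genes 5 of 6 were tested, of which Plec rose by 0.40 and Itga6 fell by 0.43. Cd151 and Dst were at 47.7 and 6.98 RPKM in wildtype libraries and at 53.7 and 7.00 RPKM in DISC1-Δ3 libraries, with no call.

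Among regulators and surface genes of epithelia 10 of 24 in the table were tested, 3 rose and 3 fell, with a median of 0.10. Cdx1, a homeobox factor of the intestine, had 0 reads in all wildtype libraries and 28, 32 and 29 in DISC1-Δ3 libraries, at least 9.29-fold higher against a floor of 3 reads per library (adjusted p = 6.53e-07, edgeR). Klf5 rose by 1.15 from 0.397 to 0.960 RPKM (adjusted p = 0.0117, edgeR), a call lost under DESeq2 and without wildtype replicate 1. Spint1, an inhibitor of epithelial serine proteases, fell by 0.99 from 14.1 ± 0.675 to 7.46 ± 0.256 RPKM. Lad1, an anchoring protein of basement membranes, rose by 0.74, and St14, a serine protease of epithelia, and Ezr, which makes ezrin, fell by 0.55 and 0.12. These 3 calls were lost under several alternatives. Klf4 was at 48.0 and 53.9 RPKM with no call. Among the factors that keep cells epithelial, Grhl1 was at 1.94 and 1.77 RPKM with no call (adjusted p = 0.294, edgeR), Grhl3 at 0.10 and 0.25 RPKM and Elf3 at 0.13 and 0.17 RPKM. Grhl2, Ovol1, Ovol2, Esrp1, Esrp2 and Ehf were at or under 0.10 RPKM on average in both genotypes.

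Among repressors of Cdh1 and mesenchymal genes 10 of 13 were tested, 6 rose and 0 fell, with a median of 0.31. Twist2 had 1, 1 and 3 reads in wildtype libraries and 108, 127 and 129 in DISC1-Δ3 libraries (fitted log2 fold change 6.00 ± 0.31 SE, adjusted p = 5.80e-11, edgeR). Acta2, the actin of smooth muscle, rose by 0.65 and Tcf3, an E-box factor, by 0.30. Zeb1 and Zeb2, which bind the E-box shown above, were at 14.3 and 13.7 RPKM in wildtype libraries and at 13.5 and 13.8 RPKM in DISC1-Δ3 libraries, and were not past the threshold (adjusted p = 0.0698 and 0.418, edgeR). In CPM, Zeb1 was at 79.2, 80.2 and 79.0 in wildtype replicates 1 to 3 and at 65.2, 66.6 and 80.5 in DISC1-Δ3 replicates 1 to 3. Zeb2 was at 92.0, 92.2 and 84.9 CPM against 78.5, 72.7 and 100.6 CPM. Both were thus under every wildtype library in DISC1-Δ3 replicates 1 and 2, but not in replicate 3, the library that stood apart. Snai1 was at 1.75 and 2.43 RPKM, higher in every DISC1-Δ3 library than in any wildtype library but not past the threshold (adjusted p = 0.144, edgeR). The libraries in which Cdh1 was higher also held more Twist2, Tcf3, Vim and Cdh2. The part of any of these genes in the level of Cdh1 was not tested.

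**Figure D2:**
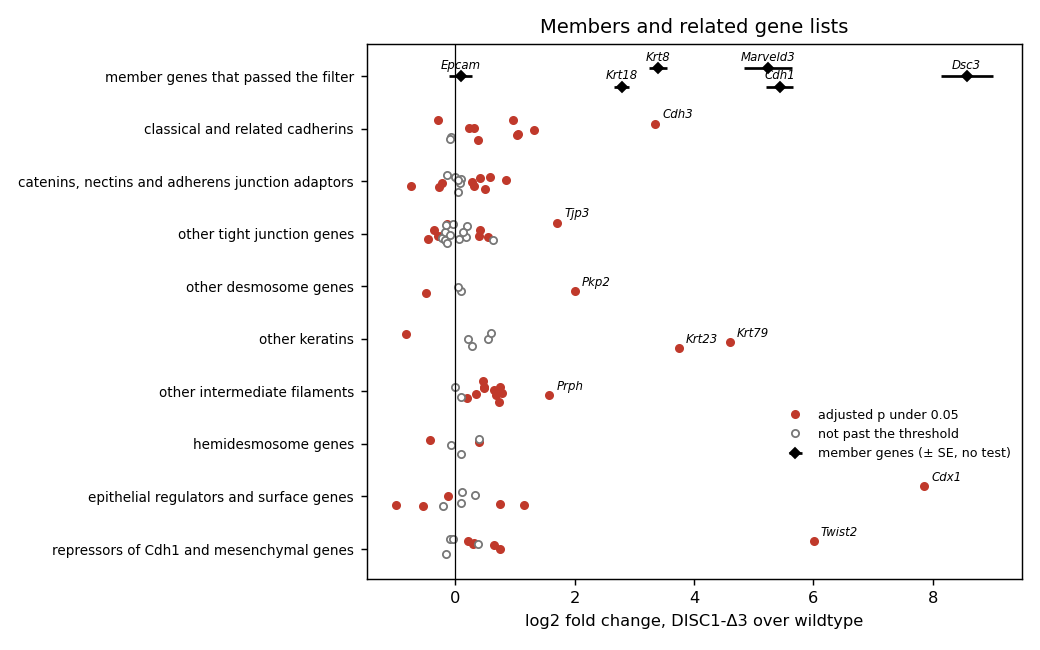
The log2 fold change of DISC1-Δ3 over wildtype for each tested gene of the 9 related lists, in red where the adjusted p was under 0.05 and open where not, with the 6 members that passed the filter at the top (diamonds, ± SE, no test). Most related genes lie within 1 of 0, and Cdh3, Tjp3, Pkp2, Krt79, Krt23, Prph, Cdx1 and Twist2 lie beyond 1.5.

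Most genes beside the members did not share their difference. In the order of genes on the reference, among genes in the table, 16 genes that are no members stood next to a member and 10 of them were tested, of which 3 rose and 1 fell. Cdh3 lies 46439 bases from Cdh1 and rose with it, whereas Tango6, 12821 bases from Cdh1 on the other side, was at 2.14 and 1.99 RPKM (adjusted p = 0.777, edgeR). Krt78, 87 bases from Krt8, had 1 read over all 6 libraries, while Krt79 beyond it rose. Eif4b, beyond Krt18, was at 98.6 and 110 RPKM (adjusted p = 0.137, edgeR). Phlpp2, 3238 bases from Marveld3, fell by 0.26. Ttr, beside Dsg2, rose by 0.26, and Cdh2, beside Dsc3 across 3151684 bases, by 0.32.

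Within 5 genes of a member on either side stood 75 genes, of which 49 were tested, 12 rose and 9 fell, with a median log2 fold change of 0.01, equal to that of all tested genes to 2 decimals. Only Cdh3 and Krt79 among them reached a log2 fold change of 2. In the desmosomal cluster Dsc3 was read in DISC1-Δ3 libraries, Dsc2 was at 0.243 RPKM, and Dsc1 and Dsg1c beside them were at or under 0.01 RPKM.

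**Figure D3:**
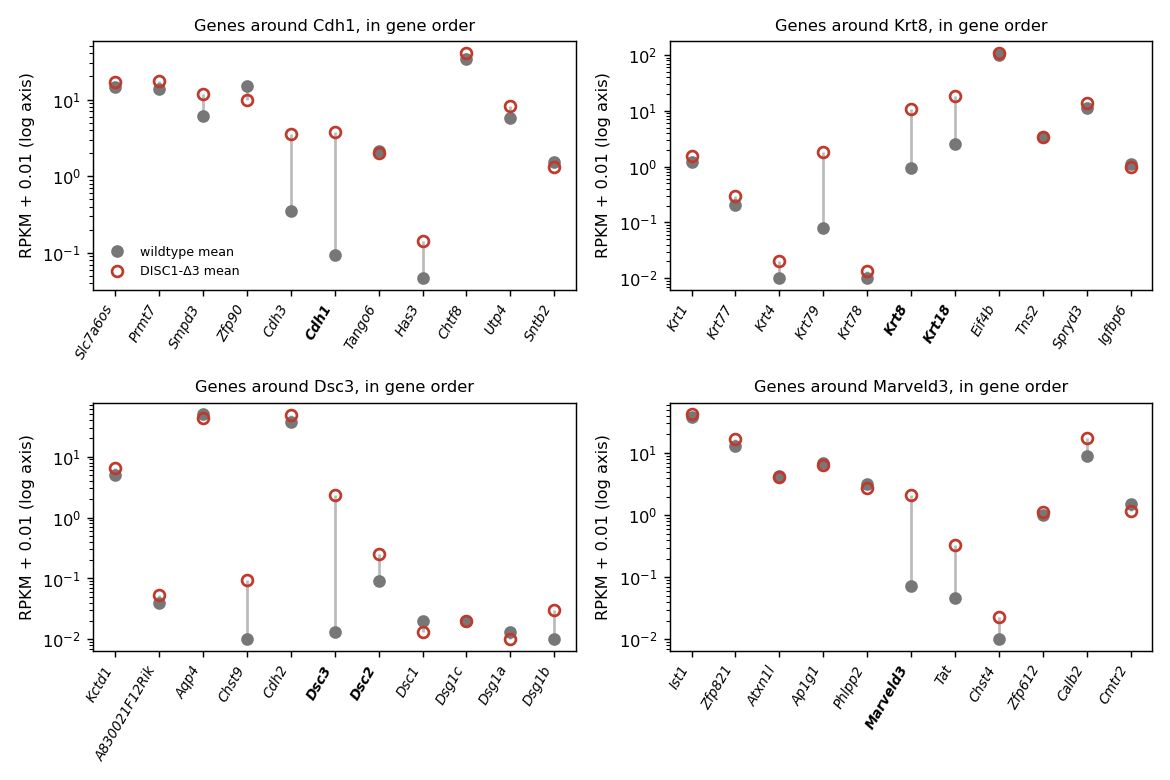
Mean RPKM, plus 0.01, on a log axis for the 5 genes on either side of Cdh1, Krt8, Dsc3 and Marveld3 in reference gene order, with wildtype means filled grey, DISC1-Δ3 means as open red circles and members in bold. The long lines at Cdh3 and Cdh1, at Krt79, Krt8 and Krt18, at Dsc3 and at Marveld3 are the longest among genes over 0.4 RPKM, and the other long lines belong to genes under that level.

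Markers of other cells moved with genotype too. Of 7 microglial markers 7 fell, with a summed level of 5070 to 5128 RPKM in wildtype libraries and 3947 to 4023 in DISC1-Δ3 libraries, and of 8 OPC markers 7 rose, from 449 to 461 up to 612 to 657 RPKM. Pericyte and smooth muscle markers rose in 7 of 7 (86.1 to 96.8, then 131 to 135 RPKM), endothelial in 4 of 7 (143 to 153, then 191 to 192) and neuronal in 6 of 8 (350 to 352, then 417 to 438). Cspg4 belongs to both the OPC and the pericyte list and counts in both. Of astrocyte markers 1 rose and 5 fell, of mature oligodendrocyte markers 6 of 8 fell, of leptomeningeal markers 1 of 7 tested rose, and of ependymal markers 0 of 7 passed the test. The part of these cells in the members' levels was not tested.

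Epithelial cells were looked at in particular. Markers of choroid plexus epithelium, which is keratin-bearing, summed to 783 to 903 RPKM in wildtype libraries and 1032 to 1163 in DISC1-Δ3 libraries, nearly all of it Ttr, and 5 of 8 rose. Sostdc1 rose by 2.54 and Clic6 by 1.32, whereas Folr1 was at 4.91 and 5.29 RPKM and Kcnj13 at 0.570 and 0.460 RPKM, with no call for either. Keratinocyte markers summed to 2.11 to 2.65 RPKM and then 2.97 to 3.48, with Krt5, Krt14 and Dsg3 at or under 0.03 RPKM and 0 of 2 tested genes called. Intestinal markers summed to 0.17 to 0.36 and then 1.45 to 1.69 RPKM, with Cdx1 the only gene tested and Muc2 and Cdh17 at or under 0.07 RPKM. The part of choroid plexus in the members' levels was not tested.

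**Figure D4:**
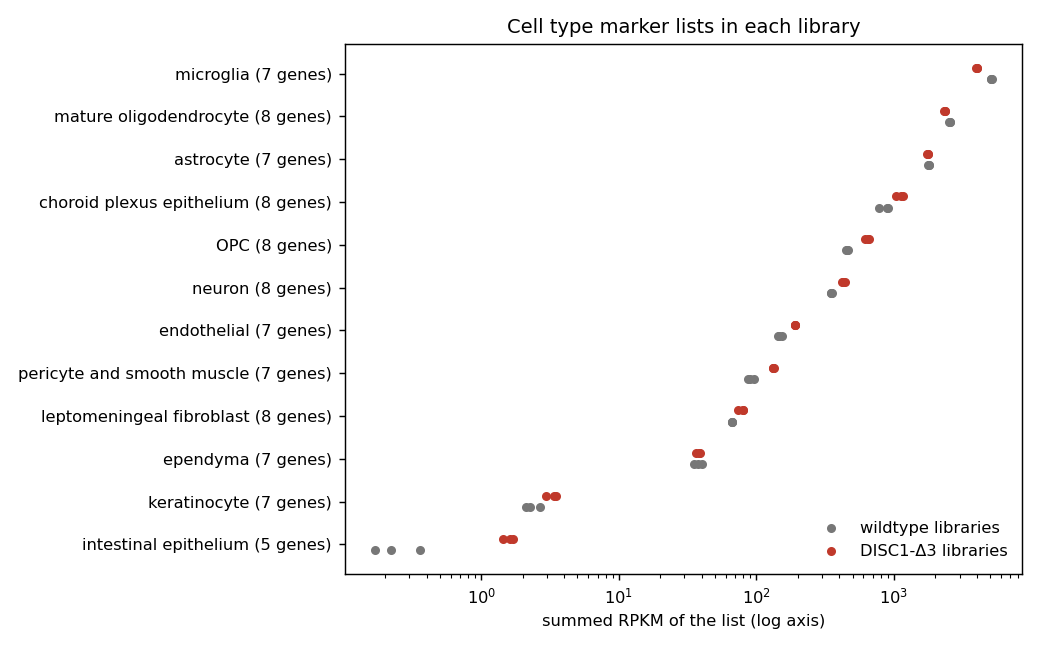
Summed RPKM of each cell type marker list on a log axis, with 1 point per library (wildtype in grey, DISC1-Δ3 in red) and the number of genes found in the table. Microglial markers are the highest in all libraries, choroid plexus markers run from 783 to 903 RPKM in wildtype and 1032 to 1163 RPKM in DISC1-Δ3 libraries, and keratinocyte and intestinal markers stay under 4 RPKM.

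Without DISC1-Δ3 replicate 3, the library that stood apart, the log2 fold changes of the 6 members that passed the filter were close to those with it. They were 5.37 for Cdh1, 8.35 for Dsc3, 5.12 for Marveld3, 3.38 for Krt8, 2.84 for Krt18 and 0.19 for Epcam. Of the scarce members, Dsg2 went from 1.68 to 1.69, Dsc2 from 1.56 to 1.78, Dsp from -1.22 to -0.81 and Krt19 from -0.08 to 0.09. Of all settings that left out 1 library, the widest ranges among those higher without overlap were 8.08 to 10.5 for Dsc3, whose only wildtype read lies in replicate 1, and 1.03 to 2.06 for Dsc2.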

How the data were processed

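RNA of OPCs from 3 wildtype and 3 DISC1-Δ3 samples was sequenced as single-end reads. Per the labels, mRNA was selected with oligo(dT) and primed with random hexamers, and no strand marking is stated, so antisense reads cannot be told apart. The submitters' processing notes name Bowtie2 2.2.5 and the build mm10; the counting tool is not given in the sources used here, and the study names DESeq2. The authors deposited an expected count per gene and library, in which reads that match several genes can be split, and 90.2% of values above 0 are whole. The authors also deposited RPKM to 2 decimals. The 4 columns of group averages, which belong to no single sample, were not used.

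Expected counts were rounded and tested with edgeR 4.0.16 (quasi-likelihood, TMM, R 4.3.3) on the 13792 genes that reached 0.5 RPKM in 3 or more libraries, with Benjamini-Hochberg adjustment over them and a threshold of 0.05. The SE beside a fitted log2 fold change is its size divided by the square root of the F statistic of the test. Fold changes of members under the filter are ratios of pooled CPM, with exact binomial 95% intervals. No molecular identifiers were used, so that PCR copies count as reads and the intervals and floors hold for counting error alone. The fits were tested on simulated data. The members and gene lists were chosen with earlier results of these data known. Named genes were the members, the 3 highest genes and the 3 largest called rises and falls of each list, markers, Disc1 and the genes beside a member. For the desmosome, tight junction, keratin, regulator and repressor lists, further genes were named after their values were seen. Of the gene IDs 18085 matched the reference table of GRCm38.p6, the same build as mm10, which served for positions, and 4 of the 10 members had a promoter window. Alternatives were other filters, scalings and tools (DESeq2 1.42.0, limma 3.58.1 on log2 RPKM), a replicate block, and each library left out.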

Additional observations from a re-analysis of the deposited data

How the results depend on the processing

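The number of members higher without overlap between genotypes was 7 under every alternative that gave it a value. In the main fit 22.2% of all genes in the table were higher in that way, and the members were picked from this contrast. Over all 10 members the median log2 ratio of pooled CPM was 2.23. Over the 6 that passed the filter, 3 of them only through the DISC1-Δ3 libraries, the median log2 fold change of 4.32 became 1.92 with limma on log2(RPKM + 1) and 3.56 with a pseudocount of 0.1, since a pseudocount shrinks genes near 0. The 15 related genes that fell became 9 with scaling by library totals, 9 by RPKM sums, 7 with limma and a pseudocount of 1 and 8 with 0.1. These 4 settings moved the median of all genes from 0.01 to between 0.07 and 0.09 and the share of calls that were higher from 51.1% to between 69.1% and 69.6%. Krt19 changed sign at 0.00039 (library totals), 0.0039 (RPKM sums), and with 1 library left out ran from -0.50 to 0.20. Epcam ran from -0.0527 to 0.24 in the same way, below 0 without wildtype replicate 1. Ctnnd1, at -0.01, became 0.0721, 0.0739, 0.0685 and 0.0702 under those 4 settings and ran from -0.0431 to 0.0319 with 1 library left out. Dst, at -0.07, became 0.0146 with library totals and 0.0168 with RPKM sums. Jup, at 0.04, ran from -0.0107 to 0.124 with 1 library left out. The cause was not tested.

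The replicate numbers did not pair the samples (correlations of deviations 0.06, 0.02 and -0.05 over 3 pairs; 1 of 3 numbers correlated best with its own). The replicate block gave 5429 called genes against 5498 without it. Depth limits Dsp, Krt19, Dsc2 and Dsg2, which rest on 15 to 61 reads a group.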
